A study of Mus musculus with 4 samples.

Results

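The collagen genes of the mouse mammary gland were followed across cell types in single-cell RNA counts. Every gene whose symbol has the form Col, a number, a and a number was taken, which gave 44 of the 28693 genes in the tables. They were sorted by the kind of structure their protein forms into 11 fibrillar, 8 basement membrane, 9 network, 9 FACIT and 4 transmembrane members, with collagens VII, XXVI and XXVIII kept as a group of 3 others. Counts were summed for each library and cell class, and the questions were which cells held each collagen's RNA and which differences in epithelial cells were larger than free RNA from other cells would give.

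Collagens are triple helices of alpha chains, each chain from its own gene. Fibrillar collagens form the cross-striated fibres of connective tissue and tendon, collagen IV forms the sheet under epithelia and around vessels, and collagen VI and VIII form beaded filaments and hexagonal nets. FACIT collagens sit on the surface of fibrils, transmembrane collagens are anchored in the cell membrane, and collagen VII anchors the epidermal basement membrane to the stroma below it. In the mammary gland the ducts rest on a basement membrane surrounded by a collagen-rich stroma, and fibroblasts are the textbook source of its fibrils.

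The 4 libraries came from 4 adult nulliparous mice of 3 to 10 months, and droplet 3' libraries were made from sorted live cells of the third, the fourth and the fifth gland pairs. The 2 WT mice carried floxed *Lats1* and *Lats2* and a heterozygous R26-lsl-EYFP reporter and had no Cre. The 2 LATS1/2 KO mice carried the same floxed alleles plus *Krt8*-CreERT2, a tamoxifen-activated Cre driven by a luminal keratin promoter, with the reporter heterozygous in replicate 1 and homozygous in replicate 2. All mice, WT included, had received 5 tamoxifen doses of 2 mg on consecutive days, and glands were collected 7 days after the last. LATS1 and LATS2 are kinases of the Hippo pathway that inhibit the transcriptional coactivators YAP and TAZ.

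Of 20324 barcodes, 18200 were kept, with 3515 to 5272 cells and 38792520 to 46810771 UMIs per library, where a UMI is 1 counted RNA molecule. Classes were set by marker genes, none of them a collagen, and a class name stands for cells that resemble that type. Luminal ER- cells numbered 2962 and 2144 in WT and 1985 and 1989 in LATS1/2 KO, against 57 and 23 and 281 and 854 fibroblasts, so stromal values rested on far fewer WT cells. In the classes where this was read, all markers reached at least 2 times their level in the rest of the cells, except 1 of 8 in adipocytes. The same markers set the classes, so this does not check them. It was not read for iCAF-like or myCAF-like cells or for epithelial cells without a lineage. Fibroblasts were split by published cancer-associated fibroblast markers into iCAF-like cells, named for inflammatory genes, and myCAF-like cells, named for myofibroblasts. The myCAF-like list was mostly matrix genes, such as *Postn*, *Tnc* and *Thbs2*, and held no contractile gene. Perivascular cells are called PVL-like. In the LATS1/2 KO libraries 604 and 606 epithelial cells met no lineage limit, against 8 and 7 in the WT libraries. Library pairs shared 4 to 12 barcodes.

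*Lats1* in luminal ER- cells was at 25.6 and 25.2 CPM (counts per 1e6 UMIs of the class) in WT and 15.4 and 18.5 CPM in LATS1/2 KO, and *Lats2* was at 15.3 and 16.9 against 28.1 and 29.9 CPM. Where the 3' tags lie relative to the deleted exons was not examined, so these levels do not check the deletion. EYFP was at 0.305 and 0.367 CPM in WT and 69.1 and 89.4 CPM in LATS1/2 KO luminal ER- cells, which matches the labelled genotypes.

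Droplets also take up RNA from outside the cell, and the amount was estimated in each library from genes made by fibroblasts, PVL-like, endothelial or basal cells. Fibroblast reference genes stood in luminal ER- cells at 0.051 and 0.0496% of their fibroblast level in WT and at 0.544 and 0.515% in LATS1/2 KO, where stromal cells were more numerous. PVL-like reference genes stood there at 1.83 and 2.34% of their PVL-like level in WT and at 1.24 and 1.31% in LATS1/2 KO. The WT libraries held 16 and 5 PVL-like cells. Basal reference genes stood there at 0.53 and 0.225% in WT and at 2.37 and 1.96% in LATS1/2 KO. Reference genes made by the class itself would raise the expected amount. Whether luminal ER- cells made any of them was not tested. A collagen was read as above free RNA in a class when both libraries of a condition held at least 2 times the expected UMIs and the lower 95% Poisson bound exceeded the expectation. Intervals and floors cover counting error only.

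Summed over the 44 genes, collagen RNA was highest in myCAF-like cells, at 82671 and 74600 CPM in the LATS1/2 KO libraries. iCAF-like cells held 16866 and 24593 CPM in WT and 25596 and 13220 CPM in LATS1/2 KO, and PVL-like cells held 24283 and 7868 CPM in LATS1/2 KO. Endothelial cells (1273 and 859 CPM in WT, 3041 and 3158 in LATS1/2 KO) and basal cells (1343 and 1459, then 1712 and 1581) came next. Luminal ER- cells moved from 166 and 158 CPM in WT to 580 and 536 CPM in LATS1/2 KO, and luminal ER+ cells from 104 and 132 to 466 and 380. Lymphocytes, which are no known source of collagen fibrils, went from 24.7 and 68.7 CPM to 1178 and 936 CPM and so exceeded luminal cells in the LATS1/2 KO libraries. Of all 44 genes in LATS1/2 KO lymphocytes, only *Col1a2* passed the free-RNA rule, and it did so in 4 of 7 settings.

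**Figure D1:**
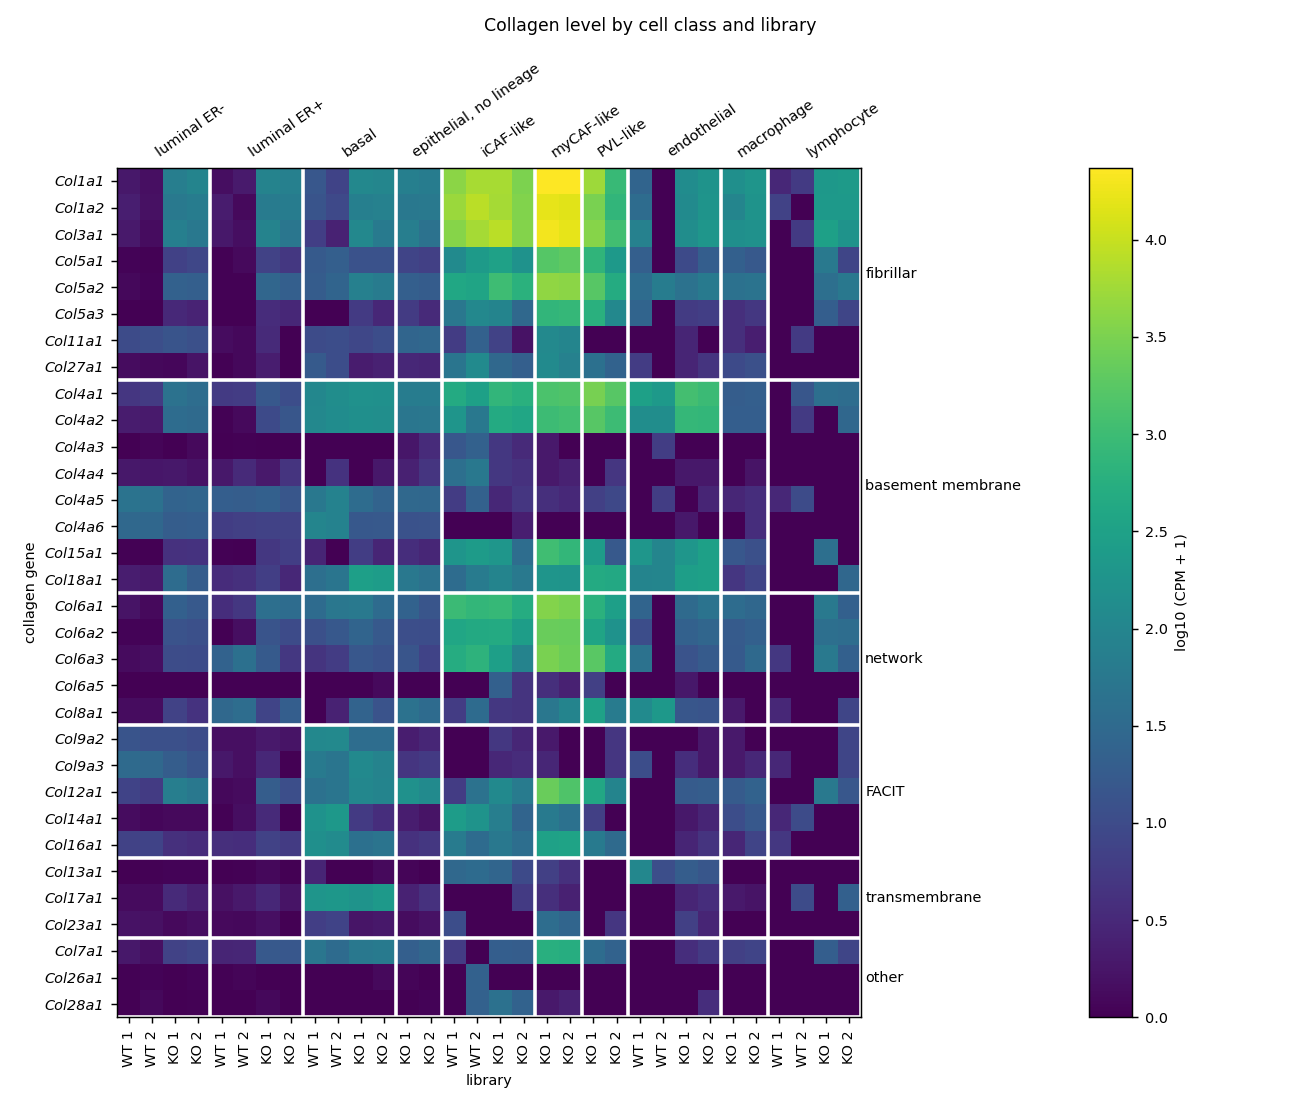
Each cell is the level of 1 collagen gene (rows, grouped by collagen class) in 1 library of 1 cell class (columns), coloured by log10 of CPM + 1, for members that reached 20 CPM in a class with at least 20 cells in that library. *Col1a1*, *Col3a1* and *Col6a1* are brightest in the myCAF-like columns, *Col17a1* in the basal columns and, among the WT columns, *Col4a5* and *Col4a6* in the basal and luminal ER- columns.

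The fibrillar genes were the most abundant group, with 244410 of the collagen UMIs. Fibroblasts held 71.5 and 79.0% of them in WT and 81.4 and 86.9% in LATS1/2 KO. A share of this kind depends on the size of a class as well as on its level. Fibroblasts numbered 57 and 23 cells in WT and 281 and 854 in LATS1/2 KO. *Col1a1* (GRCm38 chr11:94936224-94953042, plus strand), which encodes the main chain of type I collagen, stood at 4099 and 6343 CPM in WT iCAF-like cells, 6176 and 3233 CPM in LATS1/2 KO iCAF-like cells and 23438 and 22572 CPM in myCAF-like cells. Both myCAF-like values lay above every iCAF-like value, while the WT and LATS1/2 KO iCAF-like ranges overlapped. Its partner chain *Col1a2* stood at 5184 and 8165 CPM in WT iCAF-like cells and 16262 and 14894 CPM in myCAF-like cells, so the ratio of *Col1a1* to *Col1a2* UMIs was 0.791 and 0.777 in WT iCAF-like, 1.03 and 0.937 in LATS1/2 KO iCAF-like and 1.44 and 1.52 in myCAF-like cells. *Col3a1*, the type III chain of elastic tissues, followed with 3738 and 6157 CPM in WT iCAF-like and 19728 and 16267 CPM in myCAF-like cells.

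The minor fibrillar chains differed in where they stood. *Col5a1*, *Col5a2* and *Col5a3*, chains of the type V collagen that nucleates type I fibrils, were at 1654 and 1918, 4470 and 4067, and 753 and 797 CPM in myCAF-like cells. *Col11a1*, a fibril-forming chain best known from cartilage, stood in luminal ER- cells at 8.91 and 10.0 CPM in WT and 12.6 and 10.9 CPM in LATS1/2 KO, above free RNA in both conditions. Its partner *Col11a2* was above free RNA there too, at lower levels, with 1.26 and 1.06 CPM in WT (5 of 6 settings) and 0.941 and 1.15 CPM in LATS1/2 KO (7 of 7 settings). In LATS1/2 KO *Col11a1* was also at 25.6 and 27.98 CPM in epithelial cells without a lineage and at 113 and 97.1 CPM in myCAF-like cells.

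Basement membrane collagens had several sources. In WT, luminal ER- cells held 57.9 and 54.7% of the group's UMIs, most of it as *Col4a5* and *Col4a6*. The same cells held 26261237 of the 46810771 and 21769325 of the 42630666 UMIs of all genes in the WT libraries. Their share of the group was thus close to their share of all RNA. In LATS1/2 KO, fibroblasts held 28.9 and 41.8% of the group's UMIs, luminal ER- cells 18.6 and 14.6%, endothelial cells 16.3 and 13.1% and basal cells 11.04 and 10.1%. The 6 collagen IV genes fell into 3 pairs of neighbours that are read in opposite directions, *Col4a1* with *Col4a2*, *Col4a3* with *Col4a4* and *Col4a5* with *Col4a6*.

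The first pair, *Col4a1* (chr8:11198423-11312826, minus strand) and *Col4a2* (chr8:11312805-11449287, plus strand), encodes the chains found under most epithelia and vessels. *Col4a1* was highest in LATS1/2 KO PVL-like cells, at 2927 and 1704 CPM, then in myCAF-like cells, at 1382 and 1485 CPM, and in endothelial cells, at 1180 and 967 CPM. *Col4a2* had the same leading classes, at 1710 and 975.3, 1005 and 1107, and 800 and 776 CPM, with PVL-like and myCAF-like values overlapping. Basal cells held *Col4a1* at 105 and 138 CPM in WT and 161 and 157 CPM in LATS1/2 KO, and the ratio of *Col4a1* to *Col4a2* UMIs there was 0.983 and 1.02 and then 1.07 and 1.11.

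The pair *Col4a6* (chrX:141165403-141474076, minus strand) and *Col4a5* (chrX:141475385-141689234, plus strand) was epithelial. *Col4a5* stood at 55.2 and 86.5 CPM in WT basal and 44.9 and 42.0 CPM in WT luminal ER- cells, and *Col4a6* at 96.2 and 86.5 and 28.9 and 27.4 CPM. Both were lower in these 2 classes in LATS1/2 KO, *Col4a5* at 33.7 and 23.4 CPM in basal and 23.8 and 25.2 CPM in luminal ER- cells, and *Col4a6* at 15.2 and 15.9 and 18.8 and 19.6 CPM. In luminal ER+ cells neither was called, at log2 differences of −0.07 for *Col4a5* and 0.19 for *Col4a6*. The third pair, *Col4a4* (chr1:82448423-82586849, minus strand) and *Col4a3* (chr1:82586921-82722059, plus strand), best known from the kidney filter, had its highest level in WT iCAF-like cells, at 39.1 and 54.9 CPM for *Col4a4*, from 8 and 5 UMIs, and 14.7 and 21.9 CPM for *Col4a3*. *Col4a4* was also above free RNA in every setting in luminal ER- cells, at 0.876 and 0.827 CPM in WT and 0.941 and 0.645 CPM in LATS1/2 KO, and in LATS1/2 KO epithelial cells without a lineage, at 1.48 and 3.65 CPM.

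The start regions of the pair shared by stroma and vessels and of the epithelial pair are shown because each pair is read in opposite directions from neighbouring starts. The genes of a pair did not change by the same amount in every class, and the difference within a pair was not tested. From WT to LATS1/2 KO the log2 difference in luminal ER- cells was 2.80 for *Col4a1* and 4.46 for *Col4a2*. Neither of them was above free RNA there with all references. In basal cells, where both were above it, the log2 difference was 0.24 for *Col4a1* and 0.13 for *Col4a2*. For the epithelial pair in basal cells it was −1.48 for *Col4a5* and −2.69 for *Col4a6*. Each window is 300 bases from RefSeq on GRCm38.p6, from 250 bases before the start site to 50 after it, printed 5′ to 3′ on the gene's own strand, with the letters CCAAT or their complement ATTGG in capitals.
Col4a1, chr8:11312777-11313076, minus strand: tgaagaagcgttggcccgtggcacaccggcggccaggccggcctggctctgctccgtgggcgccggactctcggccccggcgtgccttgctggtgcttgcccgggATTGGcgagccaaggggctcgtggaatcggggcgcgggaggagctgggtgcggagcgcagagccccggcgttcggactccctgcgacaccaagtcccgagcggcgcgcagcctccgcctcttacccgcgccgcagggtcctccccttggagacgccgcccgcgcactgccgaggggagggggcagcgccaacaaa
Col4a2, chr8:11312555-11312854, plus strand: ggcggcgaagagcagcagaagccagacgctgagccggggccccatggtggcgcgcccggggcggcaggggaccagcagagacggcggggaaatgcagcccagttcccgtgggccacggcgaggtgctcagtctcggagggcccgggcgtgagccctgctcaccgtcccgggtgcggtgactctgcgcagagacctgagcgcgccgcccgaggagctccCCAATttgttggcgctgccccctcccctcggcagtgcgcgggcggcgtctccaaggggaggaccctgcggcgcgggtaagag
Col4a5, chrX:141475169-141475468, plus strand: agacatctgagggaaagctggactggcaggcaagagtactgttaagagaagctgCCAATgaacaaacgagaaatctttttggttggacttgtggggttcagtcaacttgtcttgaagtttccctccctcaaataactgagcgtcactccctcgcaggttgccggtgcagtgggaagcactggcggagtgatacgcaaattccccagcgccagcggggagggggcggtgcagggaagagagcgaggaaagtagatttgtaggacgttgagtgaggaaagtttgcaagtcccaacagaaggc
Col4a6, chrX:141474027-141474326, minus strand: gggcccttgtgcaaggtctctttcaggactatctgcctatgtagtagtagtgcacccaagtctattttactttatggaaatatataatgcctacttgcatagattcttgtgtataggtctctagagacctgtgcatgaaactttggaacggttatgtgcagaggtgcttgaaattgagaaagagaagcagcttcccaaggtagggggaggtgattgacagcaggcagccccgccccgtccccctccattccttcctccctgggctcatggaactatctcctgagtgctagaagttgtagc
The *Col4a1* and *Col4a2* start sites lie 21 bases apart and their windows share 78 bases, while those of *Col4a5* and *Col4a6* lie 1343 bases apart and share none. The *Col4a1*, *Col4a2* and *Col4a5* windows each hold 1 match and the *Col4a6* window 0. CCAAT on either strand was found in 34.2% of 38 collagen windows, from the 35 genes with an entry, and in 37.4% of all 32851 windows of that length, so its share among collagens was near the background.

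*Col15a1* and *Col18a1*, whose proteins carry the antiangiogenic fragments restin and endostatin, completed the group. *Col18a1* (chr10:77052178-77166548, minus strand) was highest in LATS1/2 KO PVL-like cells, at 469 and 439 CPM, and *Col15a1* in myCAF-like cells, at 1064 and 770 CPM. Endothelial cells held *Col15a1* at 197 and 97.1 CPM in WT and 199 and 308 CPM in LATS1/2 KO, ranges that overlapped.

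Among network collagens, *Col6a1*, *Col6a2* and *Col6a3* had their highest levels in fibroblasts and *Col8a1* elsewhere, although *Col6a3* was also held by WT luminal ER+ cells. *Col6a1*, *Col6a2* and *Col6a3*, the chains of the beaded filaments, were at 3687 and 3140, 2371 and 2235, and 3045 and 2461 CPM in myCAF-like cells. *Col8a1* (chr16:57624258-57754737, minus strand), the main chain of the hexagonal net under vessels and the cornea, was in contrast highest in WT endothelial cells, at 123 and 215 CPM, and in LATS1/2 KO PVL-like cells, at 314 and 65.5 CPM. WT luminal ER+ cells held it at 28.7 and 35.8 CPM, which with *Col6a3* at 22.7 and 40.0 CPM gave those cells 44.8 and 63.3% of the network UMIs of the WT libraries. In LATS1/2 KO, fibroblasts held 72.5 and 82.0% of the network UMIs. Luminal ER+ cells held 13293985 of the 46810771 and 13558914 of the 42630666 UMIs of all genes in the WT libraries.

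FACIT collagens were mostly epithelial in WT, where luminal ER- cells held 70.7 and 68.0% of the group's UMIs and basal cells 12.3 and 16.3%. The luminal ER- share is to be read beside the large part of all WT UMIs that those cells held. The 3 collagen IX chains, known from cartilage fibrils, were spread over epithelium. *Col9a2* stood at 109 and 113 CPM in WT basal cells, *Col9a3* (chr2:180597790-180622189, plus strand) at 62.3 and 49.9 CPM there and 30.8 and 29.5 CPM in luminal ER- cells, and *Col9a1* at 6.93 and 9.97 CPM in luminal ER- cells. *Col14a1* (chr15:55307750-55520803, plus strand), a fibril-spacing collagen, was at 264 and 176 CPM in WT iCAF-like and 169 and 210 CPM in WT basal cells, levels that overlapped.

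*Col12a1* (chr9:79598991-79718831, minus strand), which links fibrils in stretched tissue, carried most of the group in LATS1/2 KO. It was at 2317 and 1480 CPM in myCAF-like, 423 and 92.5 CPM in PVL-like and 161 and 124 CPM in epithelial cells without a lineage. *Col16a1* moved from a basal lead in WT, at 151 and 128 CPM, to a myCAF-like lead in LATS1/2 KO, at 314 and 336 CPM.

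Among transmembrane collagens, *Col17a1* (chr19:47646344-47692094, minus strand), the hemidesmosome collagen that fastens basal keratinocytes to their membrane, stood apart by its basal lead. It was at 192 and 201 CPM in WT and 176 and 234 CPM in LATS1/2 KO basal cells, and the next class, lymphocytes, was at 0 and 9.16 CPM in WT and 0 and 21.1 CPM in LATS1/2 KO. Basal cells held 46.9 and 55.7% of the group's UMIs in WT and 67.8 and 68.9% in LATS1/2 KO. *Col13a1* was stromal, at 103 and 10.2 CPM in WT endothelial and 29.3 and 32.9 CPM in WT iCAF-like cells, and *Col23a1* was highest in myCAF-like cells, at 35.1 and 25.4 CPM.

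In the remaining group, *Col7a1* was led by basal cells in WT, at 51.6 and 33.3 CPM, and by myCAF-like cells in LATS1/2 KO, at 564 and 525 CPM, although basal cells kept 54.5 and 58.7 CPM. *Col28a1* (chr6:7997808-8192617, minus strand), a collagen reported in peripheral nerve, was at 41.9 and 22.5 CPM in LATS1/2 KO iCAF-like cells. The 9 least abundant members were *Col10a1*, the growth plate collagen, with 0 UMIs in the 4 libraries, *Col22a1* with 5, *Col24a1* with 8, *Col26a1* with 13, *Col19a1* with 16, *Col6a4* with 18, *Col6a6* with 20 and *Col2a1* and *Col6a5* with 32 each, and no test was drawn from them.

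The 2 fibroblast types of the LATS1/2 KO mice differed in nearly all collagens. Of 23 members tested, 20 were higher in myCAF-like cells and 2 lower, against a background of 14.9% higher and 14.6% lower among 8464 genes (29.5% in either direction), by edgeR's quasi-likelihood test with the mouse as a block and Benjamini-Hochberg adjustment over all genes tested. The median log2 difference of the 23 was 2.41. All 8 fibrillar, 4 basement membrane and 4 network members tested were higher. The gate used other genes of the same cells, for myCAF-like cells mostly matrix genes, so the groups were defined within the libraries compared. The number of higher collagens is therefore not independent of the gate.

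Values beside a test are CPM after TMM scaling, in replicates 1 and 2. *Col11a1* went from 6.28 and 0.681 in iCAF-like to 112 and 99.03 in myCAF-like cells (log2 difference 5.98 ± 0.36 SE, adjusted p = 9.39e-58), *Col7a1* from 18.9 and 19.4 to 559 and 536 (4.81 ± 0.23, adjusted p = 1.87e-94) and *Col12a1* from 119 and 67.7 to 2298 and 1508 (4.39 ± 0.20, adjusted p = 6.79e-97). *Col23a1* had 0 UMIs in iCAF-like cells and 34.8 and 25.9 CPM in myCAF-like cells, at least 35.4-fold higher against a floor of 3 UMIs over both libraries. Major chains differed less, with *Col1a1* from 6175 and 3419 to 23252 and 23011 (2.33 ± 0.20, adjusted p = 9.6e-31) and *Col4a1* with the smallest called increase, 1.08 ± 0.17 (adjusted p = 5.82e-09).

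The 2 members that were lower in myCAF-like cells were *Col28a1*, at 41.9 and 23.8 against 0.966 and 1.52, and *Col13a1*, at 25.1 and 9.19 against 5.80 and 3.05 (−1.86 ± 0.58, adjusted p = 0.00616). The *Col28a1* value rested on 3 UMIs in myCAF-like cells, a ratio of 0.0505 with an exact 95% counting interval of 0.0102 to 0.152. *Col14a1* was tested and not called, at a log2 difference of 0.25. No myCAF-like comparison with WT was made, since the WT libraries held 2 and 0 such cells.

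**Figure D2:**
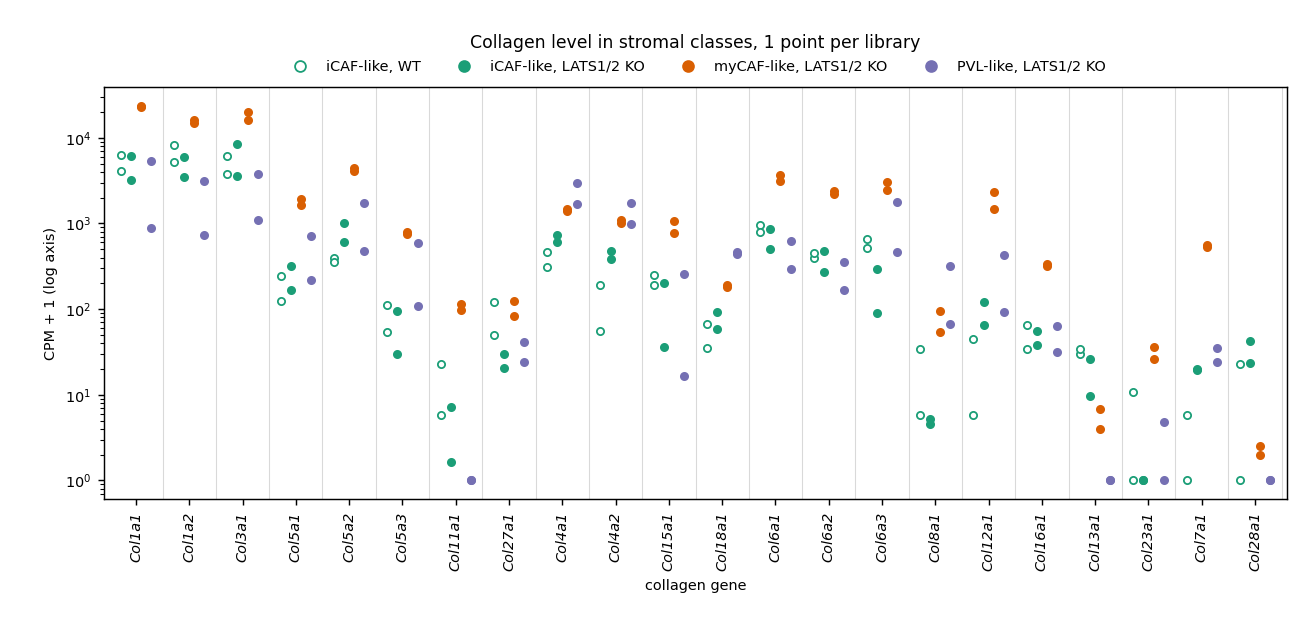
Points are CPM + 1 on a log axis, 1 per library, for the 22 collagens that differed between the fibroblast types of the LATS1/2 KO mice, with WT iCAF-like cells as open circles and PVL-like cells beside them. For *Col12a1* and *Col7a1* the myCAF-like points stand far above both iCAF-like groups, and for *Col28a1* and *Col13a1* they stand below the LATS1/2 KO iCAF-like points.

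Of 17 members tested in PVL-like against iCAF-like cells of the same mice, 7 were higher and 5 lower, with 13.9% of 5152 genes higher and 15.1% lower (29.0% in either direction, edgeR's quasi-likelihood test with the mouse as a block). *Col8a1* went from 4.68 and 4.21 to 312 and 66.8 (log2 difference 4.65 ± 0.43, adjusted p = 4.22e-25), *Col18a1* from 103 and 69.3 to 465 and 448 (2.47 ± 0.28, adjusted p = 1.43e-16) and *Col4a1* from 825 and 714 to 2903 and 1736 (1.54 ± 0.28, adjusted p = 3.53e-07). The type I and III chains were lower, *Col1a2* from 6722 and 4105 to 3067 and 754 (−1.77 ± 0.30, adjusted p = 5.95e-08). The PVL-like sums held 45 and 69 cells, and replicate 1 was above replicate 2 for every called member. Without the mouse block 5 members were called higher and 0 lower, with 8 at an unadjusted p under 0.05, so all 5 lower calls were lost. DESeq2 called 6 higher and 2 lower, and with classes taken from clusters there were 11 higher and 2 lower.

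Fibroblasts as a whole differed between conditions in 13 of 24 members tested, with 10 higher and 3 lower in LATS1/2 KO, where 5.42% of 7837 genes were called (2.68% higher, 2.74% lower, edgeR's quasi-likelihood test). The median log2 difference of the members was 1.41. *Col12a1* went from 4.44 and 40.3 in WT to 1594 and 516 in LATS1/2 KO (6.02 ± 0.81, adjusted p = 0.00317), *Col5a2* from 408 and 332 to 3366 and 1765 (2.78 ± 0.36, adjusted p = 0.00305) and *Col5a1* from 124 and 221 to 1212 and 739 (2.56 ± 0.38, adjusted p = 0.00482). *Col1a1* went from 4027 and 5878 to 17911 and 9651 (1.48 ± 0.35, adjusted p = 0.0376), whereas *Col1a2* (0.68, adjusted p = 0.276) and *Col3a1* (1.37, adjusted p = 0.0679) did not pass. *Col7a1* rested on 3 WT UMIs, at a ratio of 23.7 with an exact 95% counting interval of 8.08 to 115.

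The lower members were *Col4a4*, from 35.5 and 50.3 to 1.93 and 2.81 (−3.96 ± 0.62, adjusted p = 0.00618), *Col14a1*, from 284 and 161 to 66.8 and 32.0 (−2.28 ± 0.41, adjusted p = 0.0128), and *Col13a1*, from 53.3 and 50.3 to 14.8 and 7.25 (−2.39 ± 0.55, adjusted p = 0.0355). The makeup of the class moved with the condition, since 172 and 224 of the LATS1/2 KO fibroblasts were myCAF-like against 2 and 0 in WT. With only 57 and 23 WT cells, the number of calls ran from 6 without WT replicate 1 to 18 without LATS1/2 KO replicate 2, and it was 9 without WT replicate 2.

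Within iCAF-like cells, which both conditions held, fewer members differed and the main chains did not pass. Of 18 tested, 3 were higher and 4 lower, with 13.5% of 4656 genes called (5.99% higher, 7.52% lower, edgeR's quasi-likelihood test), and the median log2 difference was −0.15. *Col1a1* stood at 4321 and 6525 in WT and 6769 and 3780 in LATS1/2 KO (−0.04, adjusted p = 0.965). *Col4a2* rose from 201 and 56.4 to 519 and 444 (1.73 ± 0.39, adjusted p = 0.0141) and was the only member called under every alternative run. *Col5a2* was called higher, from 417 and 361 to 1109 and 717 (1.21 ± 0.28, adjusted p = 0.0158), as was *Col12a1*, from 5.15 and 45.2 to 131 and 74.9 (2.40 ± 0.70, adjusted p = 0.0468).

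The 4 lower members in iCAF-like cells were *Col4a4*, from 41.2 and 56.4 to 4.59 and 3.76 (−3.52 ± 0.48, adjusted p = 0.00121), *Col14a1*, from 278 and 181 to 80.4 and 29.4 (−2.39 ± 0.46, adjusted p = 0.00641), *Col6a3* (−1.57 ± 0.45, adjusted p = 0.0415) and *Col27a1* (−1.60 ± 0.47, adjusted p = 0.0453). *Col4a4* and *Col14a1* were thus lower in both fibroblast comparisons, which share most of their WT cells. Without WT replicate 1 the number of calls was 2.

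In endothelial cells 6 of 15 members tested were higher in LATS1/2 KO and 1 lower, with 7.52% of 6823 genes called (3.34% higher, 4.18% lower, edgeR's quasi-likelihood test). *Col4a2* went from 142 and 138 to 842 and 822 (log2 difference 2.57 ± 0.23, adjusted p = 0.000264), *Col4a1* from 315 and 226 to 1239 and 1024 (2.06 ± 0.24, adjusted p = 0.00071) and *Col18a1* from 96.4 and 97.5 to 291 and 326 (1.67 ± 0.25, adjusted p = 0.00235). The ranges did not overlap for any of the 3. *Col8a1* moved the other way, from 127 and 215 to 14.8 and 13.4 (−3.58 ± 0.36, adjusted p = 0.000434).

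The fibrillar chains *Col1a1*, from 25.4 and 0 to 139 and 187 (3.66 ± 0.58, adjusted p = 0.00336), and *Col1a2*, from 35.5 and 0 to 127 and 191 (3.14 ± 0.60, adjusted p = 0.00967), also rose in endothelial cells. Their LATS1/2 KO levels were of the size seen in lymphocytes of the same libraries, at 212 and 239 CPM for *Col1a1* and 232 and 218 CPM for *Col1a2*, and in macrophages, at 150 and 191 and 97.1 and 171 CPM, and the part of free RNA in the endothelial values was not tested. *Col12a1* had 0 UMIs in WT and 17.7 and 19.2 in LATS1/2 KO, at least 2.33-fold higher (adjusted p = 0.0454), and passed the low-count filter through the LATS1/2 KO libraries alone. The WT sums held 41 and 34 cells, and 0 of the 7 called members passed under every alternative run. Without LATS1/2 KO replicate 1, 0 of 10 members tested passed the adjusted threshold, with 7 at an unadjusted p under 0.05, and without replicate 2 the number was 3.

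**Figure D3:**
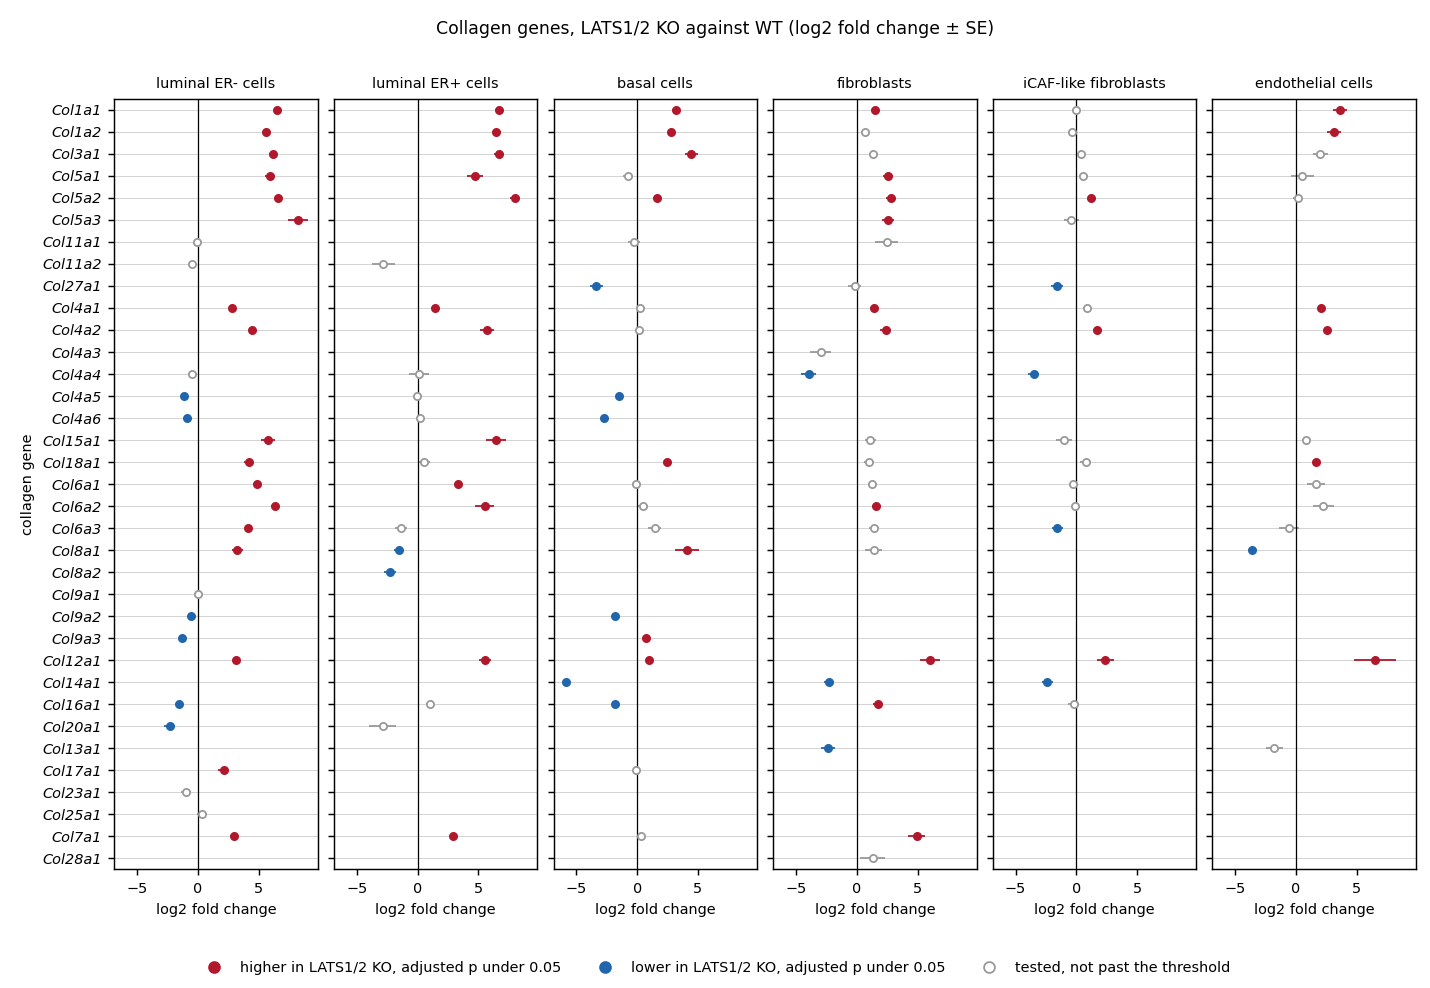
Points give the log2 difference of LATS1/2 KO from WT, with bars for its standard error, for each collagen tested (rows) in 6 cell classes (panels). Red points were higher and blue points lower at an adjusted p under 0.05, and open points did not pass. *Col1a1* lies at 6.49 in luminal ER- cells and −0.04 in iCAF-like cells, and *Col14a1* at −5.88 in basal cells.

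In luminal ER- cells, where 16.7 and 20.8% of LATS1/2 KO cells held an EYFP UMI, 17 of 29 members tested were higher in LATS1/2 KO and 6 lower, with 58.8% of 13398 genes called (30.6% higher, 28.2% lower, edgeR's quasi-likelihood test). Several of the 17 were near 0 in WT and passed the low-count filter through the LATS1/2 KO libraries alone. Of the 17, 1 stood above free RNA in LATS1/2 KO and 16 did not. Any reference genes made by luminal ER- cells would raise the expectation, so a member not above it may still be made there. The split also depended on the setting. With the library total as the source of free RNA 6 of the 17 were above it (*Col12a1*, *Col18a1*, *Col4a1*, *Col4a2*, *Col7a1* and *Col8a1*), with classes taken from clusters 2 were (*Col12a1* and *Col8a1*), and in the other 4 settings only *Col12a1* was. By contrast, all 6 lower members stood above it in WT in every setting.

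The fibrillar and network members made up 10 of the 17. *Col1a1* went from 0.996 and 0.571 to 64.8 and 80.1 (log2 difference 6.49 ± 0.23, adjusted p = 3.17e-06), *Col3a1* from 1.08 and 0.467 to 67.8 and 48.2 (6.17 ± 0.30, adjusted p = 1.04e-05) and *Col5a2* from 0.26 and 0.104 to 19.6 and 17.9 (6.59 ± 0.28, adjusted p = 6.2e-06). *Col5a3* had 0 UMIs in WT and 1.91 and 1.495 CPM in LATS1/2 KO, at least 30.6-fold higher (adjusted p = 0.000357). *Col15a1* had 2 WT UMIs, a ratio of 78.2 with an exact 95% counting interval of 21.2 to 653. The 16 members not above free RNA had observed to expected ratios of 0.209 to 2.37 in LATS1/2 KO replicate 1 and 0.311 to 3.23 in replicate 2, with medians of 0.557 and 1.42. Nearest to the limit were *Col18a1* (2.37 and 1.56), *Col7a1* (1.69 and 3.23) and *Col8a1* (1.36 and 2.65), each past 2 times in 1 library.

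*Col12a1* was the exception. It rose from 7.54 and 5.29 to 65.7 and 48.1 (3.14 ± 0.21, adjusted p = 2.84e-05), and its LATS1/2 KO sums held 1413 UMIs where free RNA gave 307 and 1189 where it gave 120. These are 4.60 and 9.89 times the expectation, and the call held in 7 of 7 settings. It stood above free RNA in WT as well, at ratios of 30.3 and 2.54, in 5 of 6 settings.

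The 6 lower members of luminal ER- cells were epithelial collagens of the basement membrane and FACIT groups. *Col4a5* fell from 51.1 and 47.4 to 21.2 and 22.1 (−1.19 ± 0.10, adjusted p = 8e-05), *Col4a6* from 32.8 and 30.9 to 16.7 and 17.2 (−0.91 ± 0.10, adjusted p = 0.000297) and *Col9a3* from 35.1 and 33.3 to 16.1 and 11.2 (−1.33 ± 0.17, adjusted p = 0.000487). *Col16a1* (−1.56 ± 0.20), *Col20a1* (−2.32 ± 0.45) and *Col9a2* (−0.59 ± 0.16) were also lower, at adjusted p of 0.000471, 0.00352 and 0.0142, and the last lost its call without WT replicate 1. *Col11a1*, from 10.1 and 11.3 to 11.2 and 9.54, and *Col9a1* were not called, at −0.05 and −0.01.

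**Figure D4:**
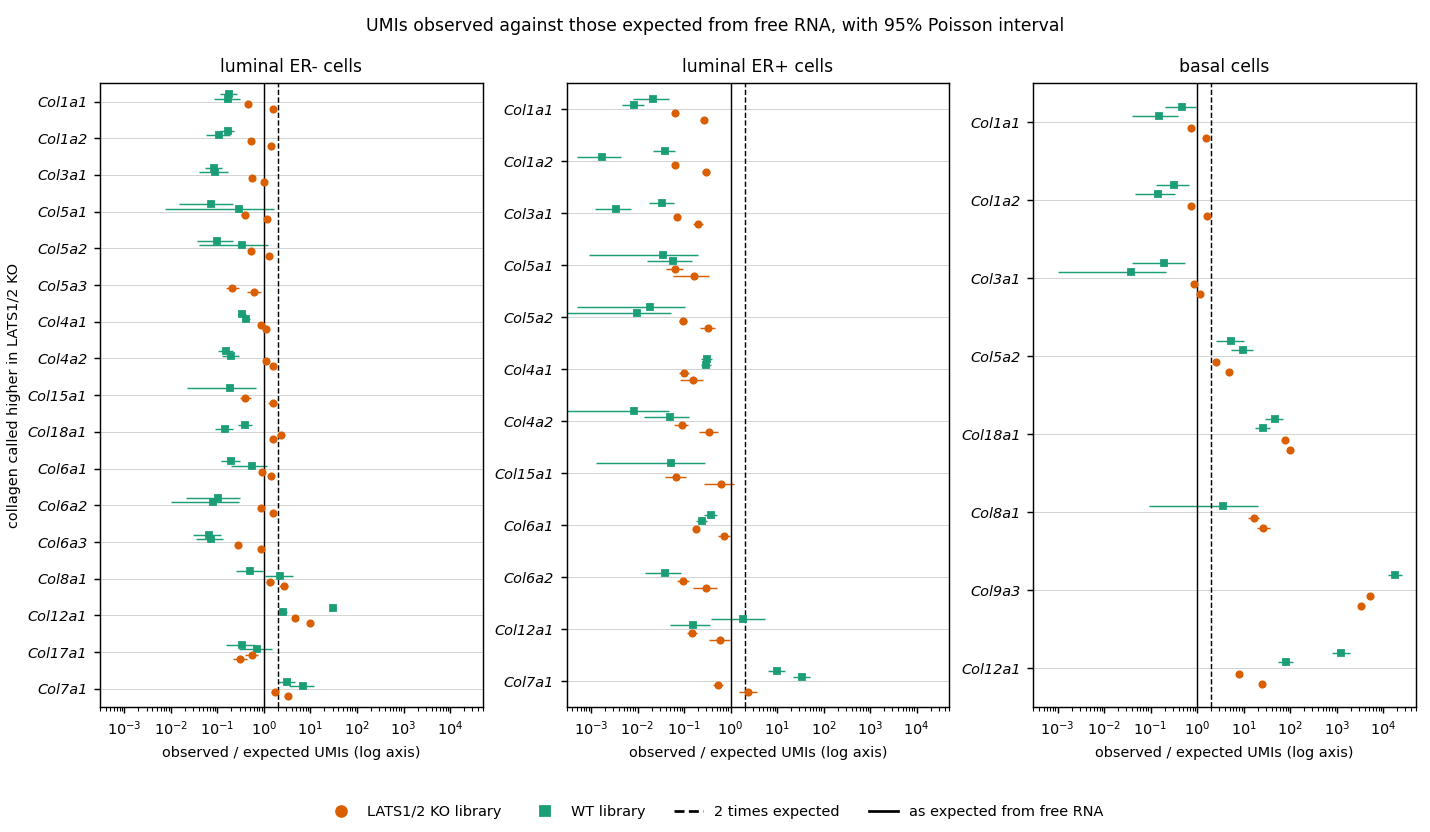
Each point is the ratio of observed UMIs to those expected from free RNA in 1 library (horizontal, log axis, with 95% Poisson bars) for the collagens called higher in LATS1/2 KO in 3 epithelial classes (panels), leaving out libraries with 0 observed UMIs. *Col12a1* in luminal ER- cells is the row with both LATS1/2 KO circles past the dashed line at 2 times, at 4.60 and 9.89, and *Col18a1* in basal cells lies at 76.2 and 99.01.

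Luminal ER+ cells gave 12 higher and 2 lower of 22 members tested, with 27.2% of 12035 genes called (14.2% higher and 1564 genes lower, edgeR's quasi-likelihood test). Several of the 12, such as *Col15a1* with 1 WT UMI, were near 0 in WT and passed the low-count filter through the LATS1/2 KO libraries alone. None of the 12 stood above free RNA in LATS1/2 KO in 5 of 7 settings, and *Col7a1* did without *Dcn* among the references and with myCAF-like cells as the fibroblast source. With all references, the observed to expected ratios ran from 0.0632 to 0.538 in replicate 1 and from 0.152 to 2.42 in replicate 2. *Col1a1* went from 0.463 and 1.11 to 88.6 and 76.9 (log2 difference 6.69 ± 0.28, adjusted p = 0.000138) and *Col3a1* from 0.926 and 0.444 to 89.6 and 49.9 (6.70 ± 0.41, adjusted p = 0.000351). *Col12a1* went from 0.232 and 0.37 to 18.7 and 10.1 (5.58 ± 0.48, adjusted p = 0.00099) with ratios of 0.151 and 0.604 to the expectation, in contrast to luminal ER- cells. *Col5a2* had 2 WT UMIs, a ratio of 333 with an exact 95% counting interval of 90.5 to 2781.

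The fibroblast reference genes include *Dcn*, which stood in luminal ER+ cells at 109 and 625 CPM in WT and 666 and 370 CPM in LATS1/2 KO, and this raised the expectation there. Without *Dcn*, 5 of all 44 members stood above free RNA in LATS1/2 KO luminal ER+ cells, against 3 with it. The 2 lower members were *Col8a1*, from 29.4 and 35.9 to 6.93 and 18.9 (−1.55 ± 0.38, adjusted p = 0.0269), and *Col8a2*, its partner chain, from 3.63 and 3.55 to 0.77 and 0.675 (−2.25 ± 0.51, adjusted p = 0.0204). Both stood above free RNA in WT in 5 of 6 settings. *Col6a3*, at 23.3 and 40.1 and then 16.7 and 4.05, did not pass (−1.38, adjusted p = 0.0727). LATS1/2 KO replicate 2 held 135 such cells, and without replicate 1 there were 8 higher and 0 lower calls, with 13 members at an unadjusted p under 0.05.

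Basal cells changed in both directions. Of 23 members tested, 8 were higher in LATS1/2 KO and 6 lower, with 37.7% of 9799 genes called (19.6% higher, 18.1% lower, edgeR's quasi-likelihood test), and the median log2 difference was 0.24. Of the 8 higher members, 5 stood above free RNA in LATS1/2 KO, namely *Col18a1*, *Col8a1*, *Col12a1*, *Col9a3* and *Col5a2*, and the first 4 did so in every setting. The type I and III chains *Col1a1*, *Col1a2* and *Col3a1* did not, at 0.739 to 0.845 times the expectation in replicate 1 and 1.13 to 1.61 times in replicate 2. Luminal cells were not counted among the sources of free RNA.

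*Col18a1* rose from 42.7 and 51.6 to 282 and 250 (log2 difference 2.49 ± 0.19, adjusted p = 4.95e-08), at 76.2 and 99.01 times the free RNA expected. *Col12a1* rose from 44.7 and 49.9 to 99.2 and 89.96 (0.99 ± 0.19, adjusted p = 0.000825), at 7.98 and 25.3 times. *Col5a2* rose from 19.4 and 25.8 to 75.2 and 62.8 (1.59 ± 0.26, adjusted p = 0.000158) at 2.57 and 4.95 times, in 5 of 7 settings. *Col8a1* had 1 WT UMI and 65 and 40 LATS1/2 KO UMIs, a ratio of 20.2 with an exact 95% counting interval of 3.55 to 806 (adjusted p = 0.0038). It passed the low-count filter through the LATS1/2 KO libraries alone. *Col9a3* went from 68.0 and 51.6 to 113 and 84.8 (0.73 ± 0.22, adjusted p = 0.014) and lost its call under DESeq2, without WT replicate 2 and without LATS1/2 KO replicate 1.

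The lower members of basal cells were each above free RNA in WT, 5 of the 6 in every setting. *Col14a1* fell from 185 and 217 to 4.30 and 2.57 (−5.88 ± 0.24, adjusted p = 6e-11), *Col4a6* from 105 and 89.5 to 14.7 and 15.1 (−2.69 ± 0.22, adjusted p = 1.21e-07) and *Col9a2* from 118 and 117 to 33.7 and 33.4 (−1.81 ± 0.17, adjusted p = 8.12e-07). The WT levels of *Col14a1* were thus in the iCAF-like range, and its LATS1/2 KO levels rested on few UMIs. *Col27a1* (−3.36 ± 0.56, adjusted p = 0.0002), *Col16a1* (−1.79 ± 0.17, adjusted p = 8.53e-07) and *Col4a5* (−1.48 ± 0.25, adjusted p = 0.000262) were also lower. *Col4a1*, at 115 and 143 and then 156 and 149, and *Col17a1*, at 210 and 208 and then 170 and 223, were not called, at 0.24 and −0.09. Of all basal cells, 10.3% lay near the class limit, and with classes taken from clusters instead there were 14 higher and 6 lower calls.

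The epithelial cells of the LATS1/2 KO libraries that met no lineage limit could not be compared with WT, where there were 8 and 7 of them. EYFP stood there at 191.8 and 289.2 CPM, the highest of the classes read, and 50% and 58.9% of the cells held an EYFP UMI, against 1.78 and 2.34% of fibroblasts. Of the 44 members, 13 stood above free RNA. *Col12a1* was at 10.1 and 20.5 times the expectation, *Col11a1* at 34.3 and 60.3, *Col8a1*, at 43.7 and 32.5 CPM, at 10.1 and 30.1, and *Col7a1* at 3.96 and 9.01. *Col18a1*, at 54.7 and 42.8 CPM, was at 2.37 and 3.18 times and passed in 5 of 7 settings, while *Col4a1*, at 67.5 and 67.0 CPM, was not above, at 1.62 and 2.82.

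Luminal ER- cells of the LATS1/2 KO mice were also split by the reporter, which marks cells in which Cre acted. Of 26 members tested, 6 were higher in EYFP+ than in EYFP- cells and 7 lower, with 36.9% of 12403 genes called (18.8% higher, 18.1% lower, edgeR's quasi-likelihood test with the mouse as a block). *Col12a1* stood at 65.0 and 47.2 in EYFP- and 100 and 70.0 in EYFP+ cells (log2 difference 0.60 ± 0.08, adjusted p = 2.45e-13), *Col11a1* at 11.1 and 8.18 and then 17.2 and 16.3 (0.82 ± 0.16, adjusted p = 2.14e-06) and *Col18a1* at 30.2 and 16.1 and then 44.5 and 24.1 (0.57 ± 0.11, adjusted p = 2.41e-06). The collagen IX chains lay on the other side, *Col9a1* at 9.33 and 16.9 and then 4.75 and 6.27 (−1.27 ± 0.20, adjusted p = 2.23e-09) and *Col9a2* at 12.2 and 11.3 and then 6.13 and 5.71 (−0.99 ± 0.20, adjusted p = 7.88e-06). *Col3a1* was lower as well, at 83.3 and 61.0 and then 58.9 and 42.3 (−0.51 ± 0.08, adjusted p = 6.56e-09). *Col25a1*, the only transmembrane member called, was lower too. It kept its call in 7 of the 8 alternatives that tested it and lost it without the mouse block.

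EYFP+ cells were the deeper ones, with medians of 13985 and 15105 UMIs against 6722.5 and 7169.5 in EYFP- cells, and a cell with more UMIs is likelier to show an EYFP UMI. With each cell thinned to 2000 UMIs, 5 members passed (2 higher, 3 lower). DESeq2 called 3, and without the mouse block 0 passed the adjusted threshold in edgeR, with 9 at an unadjusted p under 0.05. No member was called under every alternative.

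**Figure D5:**
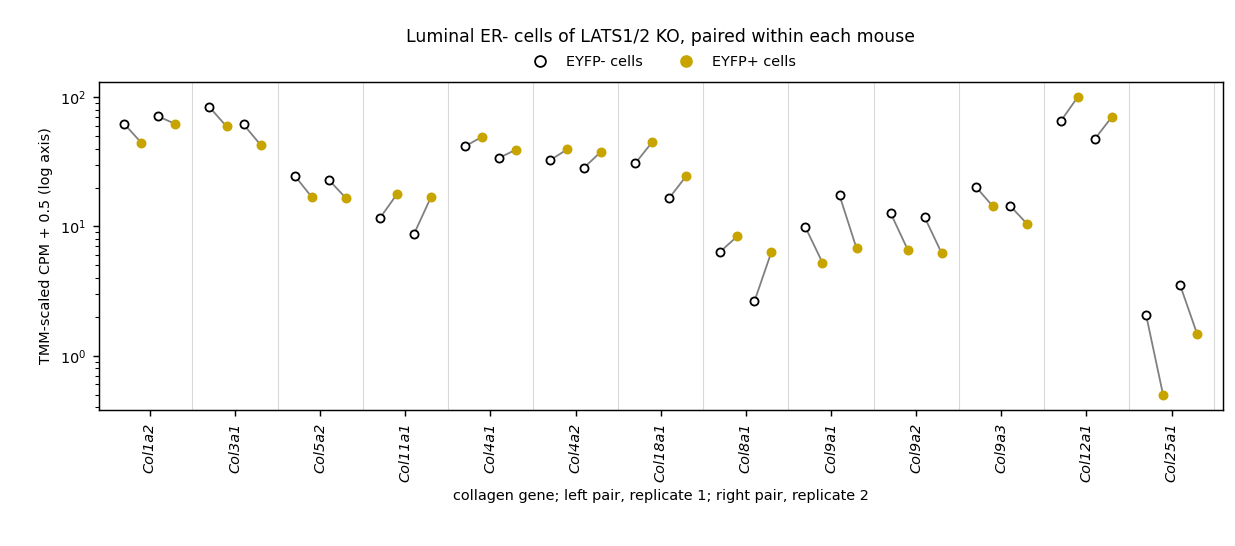
TMM-scaled CPM + 0.5 on a log axis in EYFP- and EYFP+ luminal ER- cells, joined by a line for each LATS1/2 KO mouse, for the 13 collagens called. The lines rise in both mice for *Col12a1* (65.0 to 100 and 47.2 to 70.0) and fall in both for *Col9a1* (9.33 to 4.75 and 16.9 to 6.27).

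Collagen chains are hydroxylated, folded, exported, trimmed and cross-linked by other proteins, and 35 genes with these roles were read beside the members in the same fits. In luminal ER- cells 22 of 32 tested were higher and 4 lower in LATS1/2 KO, all 5 cross-linking genes among the higher, against 30.6 and 28.2% of all genes, and in luminal ER+ cells 12 of 27 were higher and 2 lower, against 14.2% of all genes higher. Without LATS1/2 KO replicate 1 the luminal ER+ numbers were 2 higher and 1 lower of 23 tested. *Sparc*, a collagen-binding glycoprotein, went from 2.34 and 1.97 to 70.2 and 52.2 in luminal ER- cells (4.82 ± 0.20, adjusted p = 5.74e-06). These genes were not set against free RNA. In basal cells 4 of 25 were higher and 9 lower, where 19.6 and 18.1% of all genes were, so the higher share of 16% lay below the background and the lower share of 36% above it. DESeq2 called 2 higher and 4 lower there. Among them were the propeptide protease *Bmp1* from 13.6 and 36.1 to 114 and 125 (2.23 ± 0.27, adjusted p = 8.24e-06) and the N-propeptide protease *Adamts2* from 17.5 and 24.1 to 5.01 and 2.57 (−2.49 ± 0.46, adjusted p = 0.000513). The lysyl oxidase *Lox* had 0 UMIs in WT basal cells and 11.1 and 11.4 CPM in LATS1/2 KO.

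Among stromal comparisons, 21 of 30 machinery genes were higher and 2 lower in myCAF-like than iCAF-like cells, against 14.9 and 14.6% of all genes, with all 4 cross-linking genes tested and 8 of 9 prolyl hydroxylation genes higher. *Loxl3* led, from 27.2 and 15.0 to 199 and 175 (3.35 ± 0.22, adjusted p = 2.34e-48). In PVL-like against iCAF-like cells 3 of 26 were higher and 5 lower, shares near the background of 13.9 and 15.1%, and without the mouse block 0 were higher and 4 lower. There the propeptide enhancer *Pcolce2* had 0 UMIs in PVL-like cells against 161 and 258 CPM. Fibroblasts as a whole had 5 of 28 higher and 2 lower, against 2.68 and 2.74% of all genes, with a total of 2 calls without WT replicate 1, 5 without WT replicate 2 and 14 without LATS1/2 KO replicate 2. Among the higher was *Loxl2*, from 57.7 and 40.3 to 514 and 239 (2.86 ± 0.48, adjusted p = 0.00895). In iCAF-like cells 3 of 26 were higher and 4 lower, against 5.99 and 7.52% of all genes, with 3 calls in all without WT replicate 1. Among the lower was *Serpinh1*, the collagen chaperone HSP47, which fell from 1468 and 1976 to 436 and 337 (−2.16 ± 0.25, adjusted p = 0.000473). In endothelial cells 3 of 19 were higher and 0 lower by edgeR, against 3.34 and 4.18% of all genes, and DESeq2 called 1. None passed without LATS1/2 KO replicate 1 (3 at an unadjusted p under 0.05) or without LATS1/2 KO replicate 2 (2 at an unadjusted p under 0.05). In EYFP+ against EYFP- cells 5 of 32 were higher and 5 lower, shares below the background of 18.8 and 18.1%, and DESeq2 called 0 higher and 1 lower.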

How the data were processed

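Droplet 3' single-cell counts of 4 mice, 1 library each, were analysed. The authors deposited raw UMI counts of each gene per barcode, made with Cell Ranger. The submitters' processing notes name version 3.1.0 and mm10 and the matrix headers name 6.1.2, and which was used is unsure.

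Cells with over 500 genes and under 20% mitochondrial UMIs were kept (18200 of 20324), and no doublets were removed. Cells were classed by marker lists without collagens. A cell with markers of several types, or below every limit, entered no class. Of 15496 named cells, 96.98% took the same class from clusters made without collagen genes. The members, lists and gate limits were chosen with earlier results of these data known.

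UMIs were summed per library and class and given as CPM. Sums were tested with edgeR 4.0.16 (R 4.3.3), using quasi-likelihood fits, TMM scaling, its low-count filter and Benjamini-Hochberg adjustment over all genes tested, at 0.05, with mice as replicates and, within the LATS1/2 KO mice, the mouse as a block. Members were named where they reached 20 CPM in both libraries of a condition or passed a test, with full statistics for at most 10 per comparison. The code was tested on simulated data. Alternatives were DESeq2 1.42.0, RLE factors, no low-count filter, a 10% mitochondrial limit, cluster classes, the 676 highest Scrublet scores left out, each replicate left out, a replicate block and other free-RNA rules. Adding cells without a lineage to luminal ER- cells, and a myCAF-like source of free RNA, were chosen after seeing the data.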

Additional observations from a re-analysis of the deposited data

Results flagged for a closer look

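*Col8a1* moved in opposite directions between classes, with all LATS1/2 KO libraries on one side of the WT libraries in each. Its log2 difference was 3.24 in luminal ER- cells and 4.12 in basal cells (on 1 WT UMI), against −1.55 in luminal ER+ cells and −3.58 in endothelial cells. In luminal ER- cells its level was within the free-RNA rule, and the difference between classes was not tested.

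*Col9a3*, a collagen IX chain, fell by 1.33 on the log2 scale in luminal ER- cells and rose by 0.73 in basal cells, both above free RNA in both conditions. *Col16a1* had log2 differences of −1.56 in luminal ER- cells, −1.79 in basal cells and 1.74 in all fibroblasts. Neither difference between classes was tested.

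Barcodes below every marker limit, which entered no comparison, held all collagens together at 8517 and 3472 CPM in the LATS1/2 KO libraries, against 207 and 294 CPM in the WT libraries. There were 147 and 391 such barcodes in LATS1/2 KO and 91 and 26 in WT.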

How the results depend on the processing

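Of 125 gene results under 1210 alternatives, 1092 kept their direction and side of the threshold, 115 lost the threshold and 3 reversed. In all, 76 results passed in every alternative that tested them. Alternatives that filtered a member out were not counted, so *Col27a1* in basal cells rested on 6 where most basal members had 11. By comparison, the members called under every alternative that tested them were 22 of 23 in luminal ER-, 10 of 14 in luminal ER+, 13 of 14 in basal, 5 of 13 in all fibroblasts, 1 of 7 in iCAF-like and 0 of 7 in endothelial cells, 0 of 13 for EYFP, 20 of 22 for myCAF-like and 5 of 12 for PVL-like cells. Leaving out each replicate gave 8 to 15 calls in luminal ER+ cells, 6 to 18 in fibroblasts, 2 to 6 in iCAF-like and 0 to 10 in endothelial cells. It could not be run within the LATS1/2 KO mice, where no residual would remain. Without the low-count filter there were 20 calls in fibroblasts and 4 in endothelial cells. The EYFP calls numbered 3 with DESeq2, 0 without the mouse block and 5 in thinned cells, and the PVL-like calls 5 without the mouse block. Thinning turned *Col5a2* to 0.048 and *Col9a3* to 0.28 for EYFP, and cluster classes turned *Col6a2* to 0.23 for PVL-like cells, none of them called. The cause was not tested.

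The replicate numbers are not said to pair the mice. Correlations of same-numbered deviations ran from −0.01 to 0.03, and with 2 mice a group they cannot decide whether the mice were paired. With a replicate block the iCAF-like calls numbered 4, and no other number of calls moved by over 1.5 times.

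With the library total as the source of free RNA, 6 of the 17 members higher in luminal ER- cells stood above it, against 1, while 0 members were above it in WT and 0 in LATS1/2 KO luminal ER+ cells and 21 in LATS1/2 KO epithelial cells without a lineage, and without *Dcn* 5 were above in LATS1/2 KO luminal ER+ cells. Leading classes were unchanged without the highest Scrublet scores, and with cluster classes only *Col28a1* and *Col4a5* in LATS1/2 KO changed. The design limits every test to 2 mice a group, and the WT stromal sums compared held 21 to 57 cells.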
